A study of Mus musculus with 25 samples.

Results

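The cytosolic ribosome is built from ribosomal RNA and from proteins whose genes are named Rpl for the large subunit and Rps for the small subunit, and the chromatin at these genes was examined in CD8+ T cells. Of 13527 peaks of open chromatin in the deposited count table, 91 were assigned to these genes, because the nearest start of a protein-coding gene (GENCODE vM39, mouse genome GRCm39, measured from the peak midpoint) belonged to a gene named Rpl or Rps followed by a digit, to Rplp0, Rplp1 or Rplp2, or to Rpsa. Rps6k kinases and pseudogenes were left out, and no accessibility value entered the choice. Of the 91 peaks, 64 lay within 1000 bp of a start of their own gene and are called promoter peaks. The other 27 lay farther away and are called remote peaks, a name that describes distance and does not show that they act on the gene. The promoter peaks belonged to 34 large-subunit proteins, to 29 peaks of small-subunit genes (Rps26 had 2 peaks, with midpoints 292 and 175 bp from its start) and to Rps19bp1, which codes for a binding protein of Rps19 and entered through its name.

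ATAC-seq, in which a transposase inserts sequencing adapters into accessible DNA, was run on fetus/graft-specific CD8+ T cells (T_FGS) that were sorted with a tetramer (OVA:Kb) from spleen and lymph nodes of female C57BL/6 mice. The 25 libraries formed 7 groups. Naive mice (3 libraries) were untreated, and Sensitized mice (4 libraries) had rejected a skin graft of the paternal strain, 2W-OVA.BALB/c. N+P mice went into pregnancy naive, S+P mice had first been sensitized, and both had their cells sorted after birth into subsets. C1 (N+P, 3 libraries) and C4 (S+P, 4 libraries) were PD1-negative, C5 was positive for PD1 and CD73 (3 libraries of N+P and 4 of S+P), and C7 was PD1-positive and CD73-negative (S+P, 4 libraries). PD1 is an inhibitory receptor and CD73 an ectoenzyme that makes adenosine. The model antigen OVA defined which T cells were sorted, so the libraries describe a tetramer-binding population rather than all CD8+ T cells. Cell suspensions were made mouse by mouse according to the study's methods, although the labels do not tie a library to a mouse.

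Ribosomal protein genes are among the most strongly transcribed in a growing cell. Many of their mRNAs begin with a run of pyrimidines, the 5′ terminal oligopyrimidine tract, through which mTORC1 and LARP1 control translation. T cells that leave the resting state raise ribosome production as they grow, and several of the proteins also have roles outside the ribosome: Rpl5 and Rpl11 bind the p53 regulator Mdm2 together with 5S rRNA, and Rps6 is the classical substrate of the S6 kinases.

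Total counts in peaks ranged from 2430890 to 25419715 per library, with a median of 8197552. The median raw count of the 64 promoter peaks was 152 in the shallowest library and 1689.5 in the deepest, and the lowest raw count of any promoter peak in any library was 28. Of 5 CD8 T cell marker genes, 4 had peaks (all but Cd8b1). None of 5 B cell genes had a peak, and 1 of 5 myeloid genes (Cebpb), 1 of 2 CD4 T cell genes (Cd4), 1 of 2 NK genes (Klrb1c) and 1 of 3 red cell genes (Klf1) had at least 1; the Cd4 peaks summed to between 28.2 and 74.3 CPM (counts in a peak scaled to an equal total of counts in peaks) in single libraries, against 386 to 673 for the CD8 genes. The peaks of Klrb1c summed to 479 to 644 CPM and the Klf1 peak held 46.0 to 65.0. The Cebpb peak held 24.3 to 33.8 CPM in Naive and N+P libraries, 26.7 to 39.8 in Sensitized and 34.4 to 56.5 in S+P libraries. Of the other marker sets, 3 also moved when S+P C5 was set against N+P C5: the CD8 genes had 511 to 578 CPM in S+P C5 and 389 to 399 in N+P C5, Cd4 34.3 to 57.3 and 58.1 to 60.9, and Klrb1c 479 to 557 and 571 to 619, without overlap, while Klf1 overlapped. The part of these differences in the results was not tested. Sensitized libraries 3 and 4 stood apart from the other libraries of that group: across all 13527 peaks, which share the libraries, Pearson's r of their log2 normalized counts (plus 1) with the Naive mean was 0.954 and 0.918, against 0.701 and 0.744 for libraries 1 and 2. At the member peaks, the median absolute log2 difference from the Naive mean was 0.251, 0.211, 0.152 and 0.223 for libraries 1 to 4. There, library 4 was no closer to Naive than library 2. Most results against Sensitized are therefore given with and without libraries 3 and 4.

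The promoter windows of the members held some short sequence motifs more often than other promoters did. The windows ran from 250 bases before to 50 bases after the annotated first base of each gene, and both strands were searched. CCGGAAG, an ETS-type motif, was found in 25.4% of the 63 member genes with a promoter peak, in 18.7% of 7352 genes with any promoter peak and in 10.3% of all 21603 protein-coding genes. TATAAA was found in 15.9%, 7.48% and 13.2%, respectively. A run of at least 8 C or T within 50 bases of the first base was present in 58.7% of the 63 genes, in 32.8% of genes with a promoter peak and in 35.2% of all genes, but a run of at least 4 that included the annotated first base itself was found in only 22.2% of the 63. Other motifs stood on either side of the share in genes with a promoter peak: GGGCGG (SP and KLF type) in 54.0% against 62.4%, CCAAT (NF-Y) in 28.6% against 42.6%, TGCGCA (NRF1) in 12.7% against 14.7%, CACGTG (E-box) in 14.3% against 10.8% and AAGATGG (YY1) in 9.52% against 6.81%. A match is a description of the letters and not a measured binding site.

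The promoters of Rpsa and Rplp2, which had the 2 smallest adjusted p-values among promoters higher in the S+P C5 than in the N+P C5 subset, and of Rpl37 and Rps6, which differed in the other direction, are given here from 250 bases before to 20 bases from the first base of the gene (GRCm39). Capitals mark the motifs named above, and in Rps6 also the C or T run of 5 bases that includes the annotated first base. Rpsa lies at chr9:119956505-119956774 on the plus strand, Rplp2 at chr7:141027024-141027293 on the plus strand, Rpl37 at chr15:5145856-5146125 on the plus strand and Rps6 at chr4:86775649-86775918 on the minus strand.
Rpsa: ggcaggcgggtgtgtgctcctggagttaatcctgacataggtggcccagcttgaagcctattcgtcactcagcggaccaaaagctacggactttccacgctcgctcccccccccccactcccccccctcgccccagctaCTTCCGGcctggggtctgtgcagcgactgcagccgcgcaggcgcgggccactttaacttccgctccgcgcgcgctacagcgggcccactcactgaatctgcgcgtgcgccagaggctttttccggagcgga
Rplp2: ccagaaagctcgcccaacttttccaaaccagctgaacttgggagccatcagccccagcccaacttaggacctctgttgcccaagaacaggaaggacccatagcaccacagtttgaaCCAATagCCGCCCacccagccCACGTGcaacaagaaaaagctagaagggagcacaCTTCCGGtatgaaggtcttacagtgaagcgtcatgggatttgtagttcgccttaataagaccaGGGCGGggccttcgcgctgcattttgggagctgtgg
Rpl37: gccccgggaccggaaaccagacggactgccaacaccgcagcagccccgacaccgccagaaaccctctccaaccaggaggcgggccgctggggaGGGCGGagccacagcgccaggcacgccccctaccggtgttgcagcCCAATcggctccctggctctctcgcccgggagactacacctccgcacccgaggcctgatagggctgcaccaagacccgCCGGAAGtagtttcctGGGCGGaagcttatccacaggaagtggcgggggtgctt
Rps6: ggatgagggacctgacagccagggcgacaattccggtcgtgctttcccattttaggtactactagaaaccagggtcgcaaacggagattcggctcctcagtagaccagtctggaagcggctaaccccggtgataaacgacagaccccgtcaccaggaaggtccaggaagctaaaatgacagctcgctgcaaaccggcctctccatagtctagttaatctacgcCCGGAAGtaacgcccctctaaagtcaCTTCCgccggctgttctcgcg
All 4 windows held 1 ETS-type match. Rplp2 and Rpl37 each held 2 matches to GGGCGG and 1 to CCAAT, and Rplp2 also held CACGTG.

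Accessibility of the ribosomal protein promoters was close to that of promoters in general. Levels are given as CPM per kb of peak, averaged over the 25 libraries. The 64 promoter peaks had a median level of 63.8 (middle 50%, 56.5 to 77.3), and all 7670 promoter peaks had a median of 65.2 (54.4 to 79.3). The 41 promoter peaks of mitochondrial ribosomal protein genes had a median of 71.1. Member promoter peaks had a median length of 1046.5 bp and a GC content of 58.3%, against 1118 bp and 59.3% for all promoter peaks. The highest levels were 116 ± 23.6 (SD, n = 25 libraries) at Rpl27, 107 ± 16.9 at Rpl21 and 103 ± 9.64 at Rpl22l1, a paralog of Rpl22, all coding for large-subunit proteins. The lowest promoter level was 34.0 ± 6.81 at Rps14, whose peak also covers a start of Ndst1, and neighbours in this order mostly differed by less than their SD. In each library, all 91 peaks together held between 0.525% and 0.605% of the counts in peaks and the promoters between 0.421% and 0.483%. Promoters took 0.467% ± 0.010 of the counts in S+P C5, 0.470% ± 0.013 in S+P C4, then 0.475% ± 0.006 in S+P C7 (SD, n = 4 each), and 0.447% ± 0.016 in Naive, 0.443% ± 0.022 in N+P C1 and 0.436% ± 0.014 in N+P C5 (SD, n = 3 each) and 0.447% ± 0.018 in Sensitized (SD, n = 4).

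**Figure D1:**
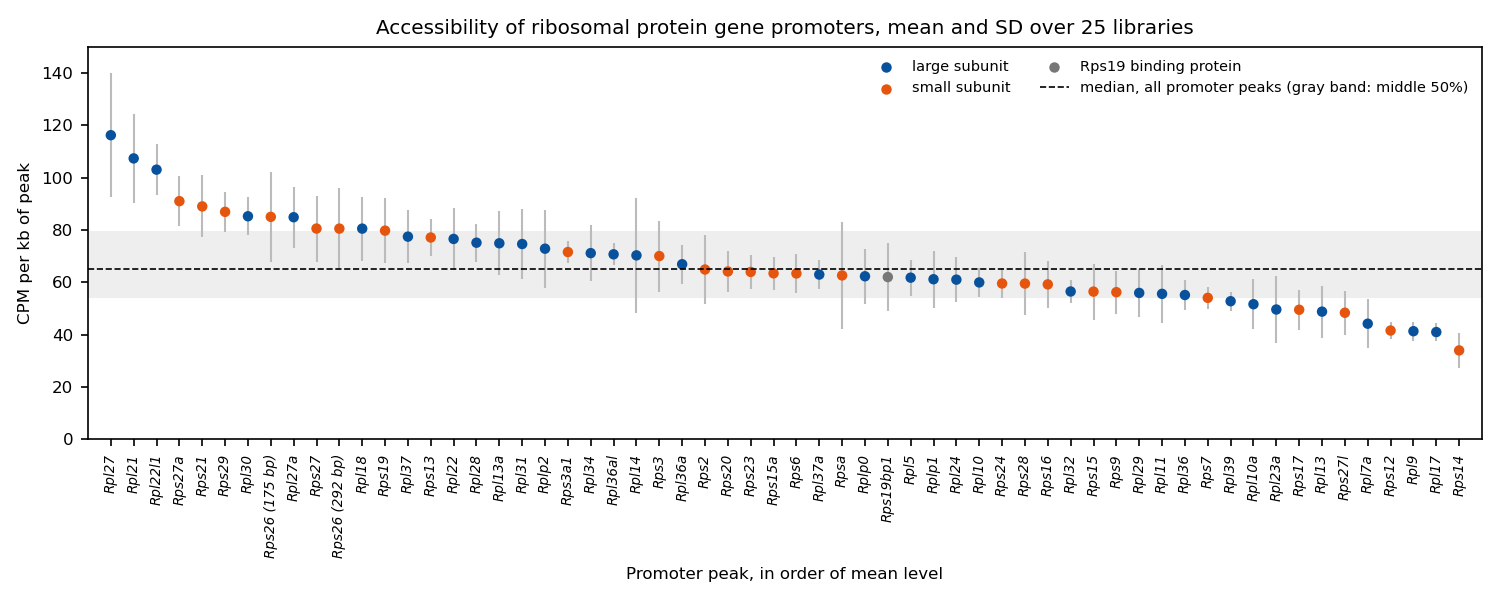
Mean level (points) and SD (lines) over 25 libraries of 60 of the 64 promoter peaks, in CPM per kb of peak, in order of level. The rest are not reported here. Blue is the large subunit, orange the small subunit and gray Rps19bp1. Large- and small-subunit genes are mixed along the order, from 116 at Rpl27 to 34.0 at Rps14, around the median of 65.2 of all promoter peaks (dashed line; gray band, middle 50%).

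Of the 90 annotated genes that the naming rule covers, 26 had no member peak. For 7 of these a peak did lie within 1000 bp of a start but took the name of a nearer neighbour, as for Rpl3 (named for Syngr1), Rpl7 (Rdh10), Rpl15 (Nkiras1), Rpl35a (Iqcg), Rpl41 (Zc3h10), Rps18 (Vps52) and Rps25 (Trappc4). The other 19, which include Rpl38, Rpl4, Rpl8, Rpl12, Rps10 and Rps4x, had no peak within that distance in the table. Another gene also started within 1000 bp of 9 member promoter peaks, among them those of Rpl37 (Card6), Rps28 (Ndufa7), Rps27 (Rab13) and Rps27a (Clhc1), and the peak cannot be divided between the genes. Peaks had been called in each library, those recurring within a group formed the list of that group, and the table merged the 7 lists, so that a peak needed only 1 list to enter it. All 7 lists held 26 of the 64 member promoters (40.6%) and 34.9% of all promoter peaks; the S+P C5 list held 61 of the 64 and the S+P C4 list 26.

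Promoter accessibility differed little between groups. The ratio of the highest to the lowest group mean of normalized counts (counts divided by the library's size factor) had a median of 1.32 over the 64 promoters, and of 1.33 over all promoter peaks. It was under 1.5 at 53 of the 64 and reached 2 at only 2, Rpsa (2.29) and Rpl14 (2.03), of which Rpl14 stood only in the peak lists of S+P C5 and C7, where it is high. A likelihood-ratio test of any difference among the 7 groups (DESeq2, adjusted p under 0.1) called 38 of the 64 promoters, 59.4%, against 70.8% of all promoter peaks and 78.4% of all peaks. The highest group mean was in an S+P subset at 37 promoters, in an N+P subset at 19, in Naive at 5 and in Sensitized at 3 (57.8%, 29.7%, 7.81% and 4.69%), where the shares of all promoter peaks were 45.4%, 41.0%, 9.32% and 4.22%.

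The comparison of S+P C5 with N+P C5 asked whether PD1-positive, CD73-positive cells differ after pregnancy according to whether the mouse had been sensitized before it. Ribosomal protein promoters split: 22 of the 64 were higher in S+P C5 and 13 were lower at an adjusted p under 0.1 (DESeq2, Wald test, 1 fit over all 25 libraries, Benjamini-Hochberg over all peaks), where 27.5% of all promoter peaks were higher and 30.9% lower. Of all 91 peaks, 57 differed, where 63.8% of all peaks did. The median log2 fold change of the 64 promoters was 0.15, against -0.00 for all promoter peaks. Library totals as size factors moved the split to 28 higher and 9 lower, with medians of 0.20 for the 64 promoters and 0.05 for all promoter peaks. A smooth correction for mean count (loess offsets) brought the median to 0.04, against 0.03 for all promoter peaks. Among promoters only Rpsa passed the limit on the size of the change, an absolute log2 fold change over 0.9, which 13 of the 91 peaks and 17.2% of all peaks passed.

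PD1-negative cells showed a like split. In S+P C4 against N+P C1, 22 of the 64 promoters were higher and 9 were lower, where 19.1% of all promoter peaks were higher and 27.3% lower, and 46 of the 91 peaks differed where 53.0% of all peaks did. The median log2 fold change of the promoters was 0.13, against -0.02 for all promoter peaks. With loess offsets it was 0.08, against 0.01. Without N+P C1 library 2 or library 3 the number of differing peaks fell to 27 and 30, respectively. These 2 comparisons share no library, but same-numbered libraries of the subsets compared had correlated deviations, so the comparisons may not be independent. Of the promoters higher in either comparison, 15 were higher in both (68.2% of each list, where the shares over all promoter peaks were 58.0% of the first list and 83.5% of the second), among them Rpsa, Rplp0, Rplp1, Rplp2, Rpl14, Rpl21, Rpl23a, Rpl27, Rpl27a, Rpl31, Rpl34, Rps2, Rps3 and Rps27. Lower in both were 9 (69.2% of the first list and 100% of the second, against 73.6% and 83.5% over all promoter peaks), among them Rpl10, Rpl24, Rpl28, Rpl36a, Rpl37, Rps6, Rps9 and Rps27a. No member promoter passed in opposite directions, and 3 of all promoter peaks did. These names follow from the overlap and were not chosen by the rule for named genes.

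The peak lists bear on these counts, since a peak held by a single list had to be high in that group, and counts over all members include such peaks. Among the 26 promoters that all 7 lists held, 8 were higher and 8 lower in S+P C5 against N+P C5 (30.8% each), where 20.9% of the 2678 such promoter peaks in all were higher and 39.2% lower. In S+P C4 against N+P C1, 9 of the 26 were higher (34.6%) and 6 lower (23.1%), against 15.5% and 33.0%. The median log2 fold changes were 0.08 and 0.03, against -0.08 and -0.07 for all promoter peaks in 7 lists.

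**Figure D2:**
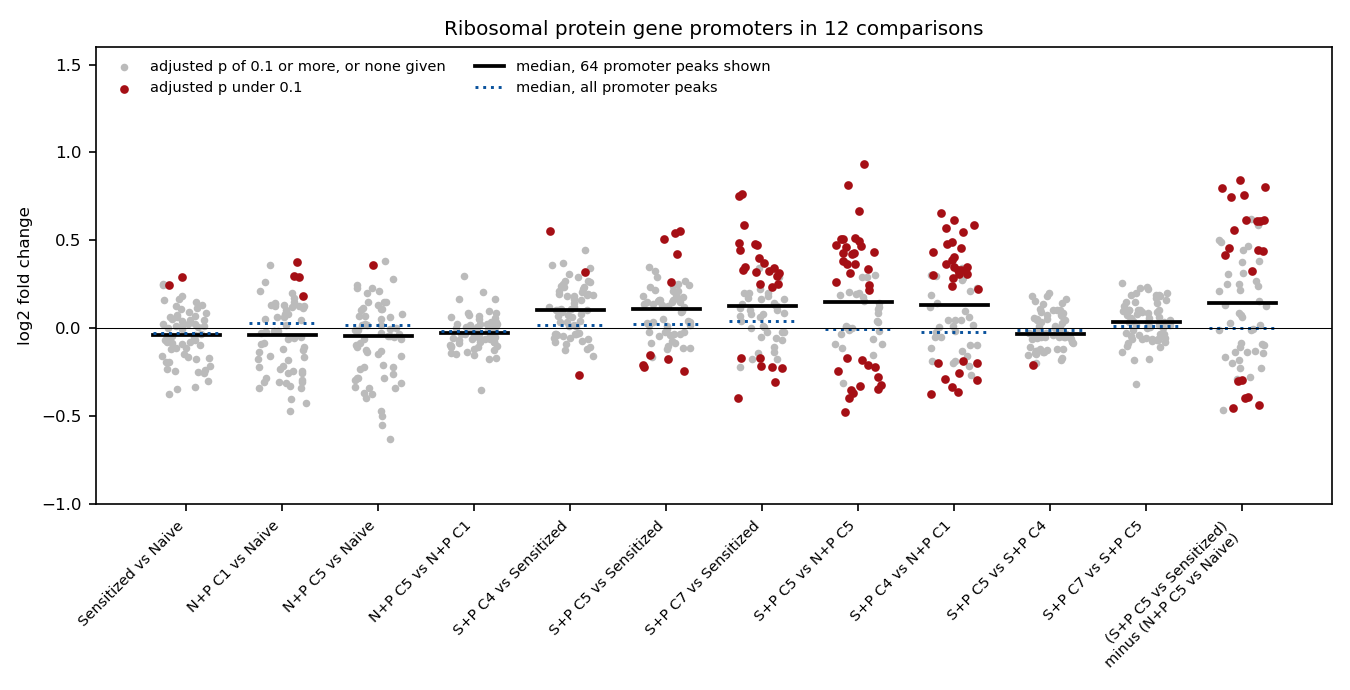
log2 fold changes (vertical axis) of the 64 promoter peaks (points) in 12 comparisons of groups; red points had an adjusted p under 0.1 (DESeq2), black bars are the medians of the 64 and dotted blue lines those of all 7670 promoter peaks. Promoters spread to both sides of 0 where S+P is compared with N+P, with medians of 0.15 and 0.13, and stay near 0 between subsets of N+P or of S+P mice.

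Rpsa had the smallest adjusted p among promoters higher in S+P C5 than in N+P C5. It codes for a small-subunit protein that is also known as a laminin receptor. Its normalized counts were 386, 407 and 349.9 in N+P C5 and 436, 382 and 384 in N+P C1. The S+P libraries had 663, 823, 699 and 731 (C5), 551, 601, 709 and 656 (C4), and 792, 1040.1, 863 and 795 (C7). Naive libraries had 486, 493 and 423 and Sensitized libraries 678, 502, 425 and 441. Every S+P library was above every N+P and Naive library, and the S+P C7 libraries were above all Sensitized libraries, while Sensitized library 1 reached into the range of S+P C4 and C5. On the log2 scale the fold change was 0.93 ± 0.15 (SE) for S+P C5 against N+P C5 (DESeq2 adjusted p = 4.1e-09) and 0.66 ± 0.15 for S+P C4 against N+P C1 (DESeq2 adjusted p = 0.00012). The Rpsa peak was not among the promoters that every group list held, so its entry may have depended on groups where it is high.

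Rplp0, Rplp1 and Rplp2 form the stalk that recruits the translation factors, and all 3 promoters were higher in S+P C5 than in N+P C5. Rplp2 had 446, 479.7 and 462 normalized counts in N+P C5, whereas the S+P C5 libraries had 686, 819, 711 and 731. The other libraries had 629.6, 617 and 511 in Naive, 613, 519 and 426 in N+P C1, 683, 526, 501 and 480.0 in Sensitized, and in the S+P subsets 711, 639, 739.8 and 652 (C4) or 755, 802, 772 and 733 (C7). S+P C5 and C7 lay above all libraries of the other mice. The difference of S+P C5 from N+P C5 was 0.67 ± 0.13 on the log2 scale (DESeq2 adjusted p = 1.1e-06). For Rplp0 it was 0.37 ± 0.12 (DESeq2 adjusted p = 0.0065) and for Rplp1 0.47 ± 0.14 (DESeq2 adjusted p = 0.0031). In S+P C4 against N+P C1 both were also called, at 0.30 ± 0.13 and 0.31 ± 0.15, with groups that overlapped. The Rplp2 peak was held by every group list, and those of Rplp0 and Rplp1 were not.

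Rpl14, a large-subunit protein, had the second widest range among promoters. Its normalized counts were 185, 220.3 and 213 in Naive, 236, 184 and 222 in N+P C1, 244, 169 and 199.6 in N+P C5 and 332, 240.1, 200.1 and 212 in Sensitized. In the S+P subsets they were 276, 273, 352 and 358 (C4), 335, 332, 389 and 384 (C5) and 380.2, 466, 398 and 416 (C7). The S+P C5 and C7 libraries were above all others except those of S+P C4, and S+P C5 was above N+P C5 by 0.81 ± 0.18 on the log2 scale. This peak stood only in the S+P C5 and S+P C7 lists, so high values in those groups were a condition of its presence and its differences from them are given as a description. Rps3, which lines the mRNA entry and also acts in DNA repair, had 451, 506 and 419.6 in N+P C5, whereas the S+P C5 libraries had 598, 677, 649.8 and 624, with a log2 fold change of 0.47 ± 0.12 (DESeq2 adjusted p = 0.00045). In S+P C4 its 4 values (439, 585, 693 and 689.6) overlapped those of N+P C1 (459, 422 and 435).

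The promoters on the lower side had larger peaks with more counts. Rpl37, a large-subunit protein, had 1598, 1802 and 1719 normalized counts in N+P C5 and 1676, 1817 and 1873 in N+P C1. The S+P libraries had 1208, 1109.7, 1221 and 1359 (C5), 1371, 1416, 1270.3 and 1448 (C4), and 1189.9, 1229, 1294 and 1414 (C7). Naive libraries had 1519.5, 1311 and 1538 and Sensitized libraries 1308, 1532, 1457 and 1371. All N+P libraries were above all libraries of the other groups. On the log2 scale, the difference was -0.47 ± 0.08 for S+P C5 against N+P C5 (DESeq2 adjusted p = 1.5e-07) and -0.37 ± 0.09 for S+P C4 against N+P C1 (DESeq2 adjusted p = 0.00012). The peak spans 2265 bp and also covers a start of Card6.

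Rps6 had 1019, 1024 and 1163 in N+P C5 and 1057, 1054 and 1136 in N+P C1, against 811, 755, 824 and 919 in S+P C5 libraries, and 973, 844, 931 and 887 in those of S+P C4. Naive libraries had 723, 812 and 953, Sensitized libraries 715, 872, 886 and 924 and S+P C7 libraries 866, 902, 1007 and 915. All 6 N+P libraries were above all 19 others. Against N+P C5, the log2 fold change of S+P C5 was -0.37 ± 0.10 (DESeq2 adjusted p = 0.001). Rpl36a (-0.35 ± 0.10), Rpl24 (-0.40 ± 0.11) and Rpl30 (-0.25 ± 0.08) were lower in the same comparison, each with groups that did not overlap.

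Promoters of several proteins with known roles outside the ribosome were examined whatever their values. Rpl5 had a log2 fold change of -0.03 in S+P C5 against N+P C5 (95% interval -0.27 to 0.21) and its partner Rpl11 one of 0.51 ± 0.19 (DESeq2 adjusted p = 0.018). Rps19, a gene mutated in Diamond-Blackfan anaemia, had 0.21 (-0.09 to 0.50) in that comparison and 0.35 ± 0.15 in S+P C4 against N+P C1 (DESeq2 adjusted p = 0.049). Rps27l, a p53 target, had 0.29 (-0.05 to 0.63), Rpl10a had 0.18 (-0.21 to 0.57), Rpl22 had 0.19 (-0.07 to 0.45) and its paralog Rpl22l1 had 0.11 ± 0.09. Rpl13a, which takes part in translational silencing, had 0.37 ± 0.15 (DESeq2 adjusted p = 0.033). The peaks of Rpl11 and Rpl13a were not held by every group list. The interval of Rpl5 does not reach the 0.37 measured at Rplp0, and those of the others that missed the threshold do, except for Rpl22l1.

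**Figure D3:**
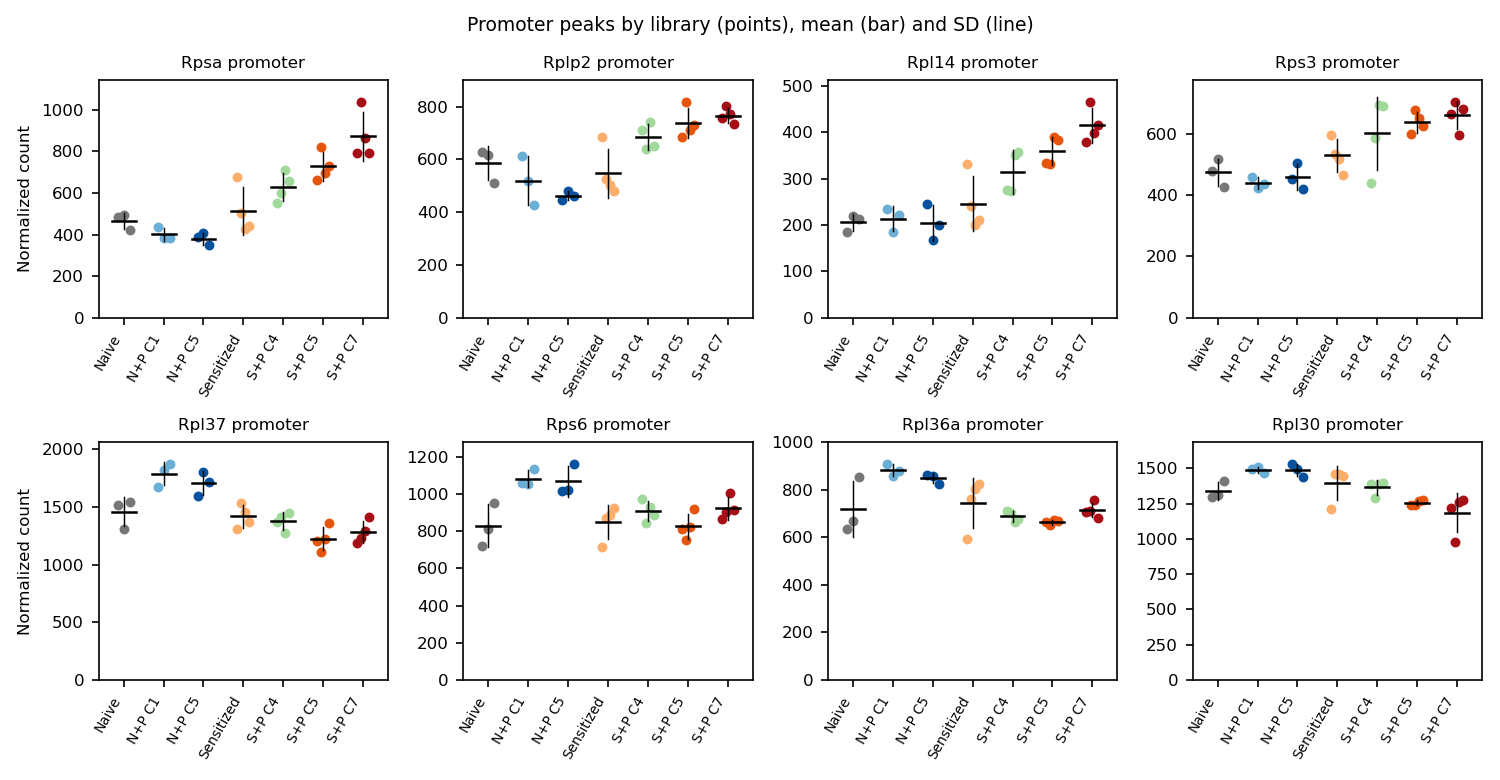
Normalized counts (vertical axis) of 8 promoter peaks in each of the 25 libraries (points) by group, with the group mean (bar) and SD (line). Rpsa, Rplp2, Rpl14 and Rps3 are highest in S+P C5 and C7, with a mean for Rpsa of 381 in N+P C5 against 729 for S+P C5, and Rpl37, Rps6, Rpl36a and Rpl30 are highest in N+P C1 or C5, with Rpl37 at 1706 in N+P C5 against 1224 for S+P C5.

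The direction of a promoter went with the size of its peak. In S+P C5 against N+P C5, the 22 higher promoters had a median length of 919 bp and a median normalized count of 483, and the 13 lower ones 1370 bp and 744. All promoter peaks showed the same order, with 856 bp and 454 for the higher and 1463 bp and 791 for the lower ones. Spearman's rho between log2 fold change and peak length was -0.65 over the 64 member promoters and -0.44 over all 7670. It was -0.62 and -0.41 in S+P C4 against N+P C1, and 0.72 and 0.44, with the opposite sign, in N+P C1 against Naive. These correlations are across peaks that share the libraries and are a description. The part of peak length, count or library quality in the promoter differences was not tested. In bulk libraries, fewer cells with an open promoter and less cutting at each promoter cannot be told apart.

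Pregnancy of sensitized mice was examined by comparing the S+P subsets with Sensitized. In S+P C7, 38 of the 91 peaks differed, where 52.9% of all peaks did. Of the 64 promoters, 19 were higher (26.6% of all promoter peaks) and 7 lower (21.1%), and size factors from promoter peaks of other genes gave 18 and 11. Rpsa was higher by 0.77 ± 0.13 (DESeq2 adjusted p = 1.7e-07) and Rplp2 by 0.48 ± 0.11 (DESeq2 adjusted p = 0.00018), while Rpl30 (-0.23 ± 0.07) and Rpl24 (-0.31 ± 0.10) were lower. Without Sensitized libraries 3 and 4 the number of differing peaks fell to 20, with 6 promoters higher and 2 lower, and Rpl30 (-0.16) and Rpl24 (-0.17) were no longer called, while Rpsa (0.56) and Rplp2 (0.34) were. Without Sensitized library 1 it rose to 58. The Rpl14 promoter, counted among the 19, had 0.75 ± 0.16 (0.53 without Sensitized libraries 3 and 4), a description only, since it entered the table through the S+P C5 and C7 lists. Of the 26 promoters in all 7 lists, 8 were higher (30.8%) and 4 lower (15.4%), against 25.9% and 22.8% of all such promoter peaks.

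In S+P C5 against Sensitized, 23 of the 91 peaks differed, where 32.9% of all peaks did; 5 of the remote ones entered through the S+P C5 list alone. There were 5 promoters higher (14.2% of all promoter peaks) and 5 lower (12.2%), and library totals as size factors gave 7 and 2. Higher were Rpsa (0.51 ± 0.13), Rplp2 (0.42 ± 0.11) and Rps3. The other 2 counted as higher, Rpl14 (0.55 ± 0.16) and Rps28, are a description only, since their peaks entered through the lists of S+P C5 and C7 and of S+P C5, respectively. Of the 26 promoters in all 7 lists, 2 were higher (7.69%) and 4 lower (15.4%), against 9.26% and 17.2% of all such promoter peaks. Among the lower ones were Rpl37 (-0.21 ± 0.08), Rpl24, Rpl28 and Rpl30. Without Sensitized libraries 3 and 4, 7 peaks were called and no promoter was among them; the log2 fold change of Rpsa was then 0.30 (DESeq2 adjusted p = 0.20) and that of Rplp2 0.28 (DESeq2 adjusted p = 0.19). The values were about as large as before at Rps28 (0.54 in both) and Rpl37 (-0.21), and smaller at Rpl14 (0.33), Rps3 (0.17), Rpl24 (-0.080), Rpl28 (-0.10) and Rpl30 (-0.084). Without Sensitized library 1, by contrast, 48 were called, and without library 3 or 4 the number was 15 or 14. In S+P C4 against Sensitized, 5 peaks differed, where 6.54% of all peaks did: Rplp2 (0.32 ± 0.12), Rps26 (0.55 ± 0.17, the peak 292 bp from its start), the intronic Rps15a peak and a remote Rpl14 peak were higher and Rps7 (-0.26 ± 0.08) was lower. The edgeR quasi-likelihood test called no member peak in this comparison, with 15 at an unadjusted DESeq2 p under 0.05 (18.7% of all peaks). Library totals as size factors gave 4 higher and 2 lower, and those from promoter peaks of other genes 2 and 1. Without Sensitized libraries 3 and 4 none of the 5 was called and 1 other peak was. The log2 fold changes were then 0.57 at Rps26, 0.34 at the Rpl14 peak and -0.25 at Rps7, about as large as before (0.35 before at the Rpl14 peak), but 0.17 at Rplp2 and 0.22 at the Rps15a peak, where the latter had been 0.59. The number was 33 without Sensitized library 1, 11 without S+P C4 library 1, 1 without Sensitized library 2, 3 or 4 or S+P C4 library 3, and 0 without S+P C4 library 4.

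Pregnancy of naive mice was compared with Naive. In N+P C1, 4 peaks differed of the 28 members that passed the test's filter, where 11.9% of all tested peaks did, and all 4 were promoters higher in N+P C1 (11.8% of the tested promoter peaks were): Rps6 (0.38 ± 0.11, DESeq2 adjusted p = 0.042), Rpl37 (0.29 ± 0.09, DESeq2 adjusted p = 0.046), Rpl36a (0.29 ± 0.11) and Rpl36al. In N+P C5, 1 of 20 tested members differed, Rps6 (0.36 ± 0.11, DESeq2 adjusted p = 0.052), where 7.87% of all tested peaks did. The edgeR quasi-likelihood test called none of them, with 17 and 20 members at an unadjusted DESeq2 p under 0.05 (19.0% and 17.5% of all peaks). Size factors from promoter peaks of other genes ended all of these calls and gave only lower remote peaks, 2 in N+P C1 and 1 in N+P C5. Library totals gave 3 higher and 2 lower in N+P C1 and 2 and 3 in N+P C5. Without Naive library 3 the numbers rose to 21 in both comparisons and the direction turned, with 7 higher and 14 lower in each, and with only the libraries compared they were 4 higher and 7 lower in N+P C1 and 4 and 10 in N+P C5. Without Naive library 1 they were 0. They were also 0 in N+P C1 without Naive library 2 and in N+P C5 without N+P C5 library 3, and 1 in N+P C1 without N+P C1 library 2 or 3. The N+P subsets did not differ from each other at any member peak (0.0% of all peaks), with 2 at an unadjusted p under 0.05 in DESeq2 (2.28% of all peaks) and 0 calls by edgeR.

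Sensitization on its own was compared through Sensitized against Naive, where 9 of the 91 peaks differed and 20.5% of all peaks did. Only 2 promoters were among them, both higher (4.68% of all promoter peaks were): Rpl22l1 (0.25 ± 0.09, DESeq2 adjusted p = 0.047) and Rpl31 (0.29 ± 0.12, DESeq2 adjusted p = 0.086). Without Sensitized libraries 3 and 4, 19 peaks were called, with Rpl22l1 at 0.34 and Rpl31 at 0.45, and loess offsets gave 16, of which 5 were higher and 11 lower. Neither promoter was called without Naive library 1 or Sensitized library 2, Rpl22l1 was lost without Naive library 2, and Rpl31 without Naive library 3 or Sensitized library 1. The number of peaks was 5 without Naive library 1 or Sensitized library 2, 15 without Naive library 3 and 16 without Sensitized library 1.

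The difference between the effect of pregnancy in sensitized and in naive mice was tested as an interaction, the log2 fold change of S+P C5 against Sensitized minus that of N+P C5 against Naive. It passed at 30 member peaks, where 31.2% of all peaks passed; 4 of the remote ones entered through the S+P C5 list alone. Of the promoters, 15 had a higher value (16.9% of all promoter peaks) and 6 a lower (17.9%). Among the 26 promoters in all 7 lists the split turned, with 3 higher (11.5%) and 5 lower (19.2%), against 13.8% and 26.1% of all such promoter peaks. The 3 promoters with the smallest p were Rplp2 (0.76 ± 0.18, DESeq2 adjusted p = 0.0018), Rpsa (0.80 ± 0.21, DESeq2 adjusted p = 0.0046) and Rpl37 (-0.43 ± 0.12, DESeq2 adjusted p = 0.0069), and all 3 were also called without Sensitized libraries 3 and 4, at 0.62, 0.59 and -0.43. In all, 7 member peaks were called without those libraries, 10 without Naive library 2, 15 without Naive library 1 or Sensitized library 4, 17 without N+P C5 library 3 and 51 without Sensitized library 1. For Rplp2, Rpsa and Rpl37, N+P C5 against Naive had -0.34, -0.29 and 0.23, none of them called, so part of each interaction lay there.

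Between subsets of the S+P mice the promoters hardly differed. S+P C5 and S+P C4 differed at 11 member peaks, where 13.3% of all peaks did (DESeq2), and 1 of the 11 was a promoter, where 4.47% of all promoter peaks differed. Of the 6 peaks counted as higher, 5 entered through the S+P C5 list alone and had to be high there. Loess offsets gave 4 peaks higher and 5 lower, where the count above was 6 and 5. The number was 5 without S+P C4 library 1, 6 without S+P C4 library 2 and 7 without S+P C5 library 2 or 3. S+P C7 and S+P C5 differed at 4 member peaks, all remote, where 8.93% of all peaks did; 2 of the 4, both lower in S+P C7, entered through the S+P C5 list alone. With the replicate number as a block 14 were called, 3 promoters higher and 1 lower in S+P C7 and 3 remote peaks higher and 7 lower. The share of all peaks called with the block was not counted, so the 14 cannot be set against the 8.93%. Without the block, the 4 fell to 2 without S+P C5 library 1 or S+P C7 library 3 and to 1 without S+P C7 library 4.

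Other genes of translation were counted in the same fits. Of 26 translation factor promoters, 11 were higher and 4 lower in S+P C5 against N+P C5, 8 and 3 in S+P C4 against N+P C1, and 13 and 1 in S+P C7 against Sensitized, where the shares of all promoter peaks were 27.5% and 30.9%, 19.1% and 27.3%, and 26.6% and 21.1%. Of 41 mitochondrial ribosome promoters the numbers were 10 and 12, 3 and 11, and 7 and 8, and of 20 ribosome biogenesis promoters 3 and 4, 1 and 3, and 5 and 4. Of regulators of ribosome production (Myc, Maf1, Larp1 and genes of the mTOR pathway), none of 6 promoters differed in S+P C5 against N+P C5, while of their 15 other peaks 13 were higher and 1 lower, in a comparison where 70.7% of all peaks not at promoters differed.

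The 27 remote peaks varied more than the promoters, as remote peaks in general did. Their ratio of the highest to the lowest group mean had a median of 2.15, against 2.00 for all 5857 peaks not at promoters, and 24 of them differed among the 7 groups (88.9%, against 88.4%). Of the 27, 21 were intergenic, 3 intronic, 2 exonic and 1 lay at the promoter of Arpc5l. In S+P C5 against N+P C5, 15 were higher and 7 lower (81.5%), where 70.7% of all peaks not at promoters differed; loess offsets gave 9 and 8. Of the 15, 5 entered through the S+P C5 list alone, and of the 7, 1 through the N+P C5 list alone, so these had to be high in the group that held them. The Rplp1 gene had 11 of them, spread from 84.3 to 250 kb downstream of its start on chromosome 9, between Rplp1 and Tle3, whose start is 292 to 458 kb from these peaks on the far side. All but 1 of the 11 were held by fewer than 5 of the 7 lists.

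A set of 5 remote peaks stood in the S+P C5 list only, and 3 of them, at 135 and 193 kb from Rplp1 and near Rps29, had at most 32.5 normalized counts in Naive and N+P libraries. Of the 5, 4 lay at Rplp1 (84.3, 135, 193 and 194 kb from its start) and 1 at Rps29, a small-subunit gene, 57.1 kb from its start. Since they entered the table through that list alone, a high value in S+P C5 is a condition of their presence and not an independent finding, and their differences between S+P C5 and other groups are given as a description, without a test. The peak centres of 200 bases are given from the plus strand of GRCm39 for 3 of the 5, chosen after their values were seen: Rps29 at chr12:69148742-69148941, Rplp1 135 kb away at chr9:61686435-61686634 and Rplp1 194 kb away at chr9:61627424-61627623. Capitals mark matches to TGANTCA (AP-1), CTTTGA (TCF and LEF) or TGGAAA (NFAT) on either strand.
Rps29: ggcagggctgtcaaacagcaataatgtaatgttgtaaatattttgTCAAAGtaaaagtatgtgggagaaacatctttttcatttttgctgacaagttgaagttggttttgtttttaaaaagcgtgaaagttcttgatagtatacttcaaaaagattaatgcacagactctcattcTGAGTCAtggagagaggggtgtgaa
Rplp1 135 kb: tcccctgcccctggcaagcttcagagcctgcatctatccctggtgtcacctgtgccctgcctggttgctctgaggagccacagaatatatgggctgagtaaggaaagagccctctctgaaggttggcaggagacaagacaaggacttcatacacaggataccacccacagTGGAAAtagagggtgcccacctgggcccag
Rplp1 194 kb: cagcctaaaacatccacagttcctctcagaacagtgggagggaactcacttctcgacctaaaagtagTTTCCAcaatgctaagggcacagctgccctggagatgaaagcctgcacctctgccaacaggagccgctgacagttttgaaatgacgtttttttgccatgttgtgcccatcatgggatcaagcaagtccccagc
These motifs were chosen after the values were seen. TGGAAA was found in the central window of 29.6% of the 27 remote peaks and 18.5% of all 5857 peaks not at promoters, TGANTCA in 11.1% and 11.5%, CTTTGA in 14.8% and 17.9%, TGTGGT (RUNX) in 18.5% and 31.5%, and AGGTGT (T-box) in 11.1% and 14.8%.

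The peak 135 kb from Rplp1 had 423, 669, 352 and 345 normalized counts in S+P C5, followed by S+P C7 with 265, 459.6, 191 and 66.1. It had 78.3, 67.5, 56.6 and 19.0 in S+P C4, 54.8, 27.5, 9.17 and 21.7 in Sensitized, 20.1, 13.7 and 30.1 in N+P C5, 2.2, 0 and 30.1 in N+P C1, and 11, 12.8 and 8.20 in Naive. S+P C5 lay above every library outside the PD1-positive S+P subsets. DESeq2 estimated a log2 fold change of 3.98 ± 0.63 against Sensitized (3.44 without Sensitized libraries 3 and 4) and 3.04 ± 0.63 against S+P C4, which became 2.08 and 1.32 with loess offsets.

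The Rps29 peak had 259, 309, 161 and 281 in S+P C5, followed by S+P C7 with 97.8, 134, 66.3 and 35, against 34.0, 9.09, 1.41 and 9.51 in the PD1-negative S+P C4. Sensitized libraries had 6.92, 6.28, 11.5 and 25.5, N+P C5 libraries 16.1, 17.8 and 32.5, N+P C1 libraries 4.42, 7.85 and 1.88, and Naive libraries 9.64, 0.983 and 5.68. All S+P C5 libraries were above all S+P C7 libraries, and these were above all others. Against Sensitized, the log2 fold change of S+P C5 was 4.32 ± 0.56 (5.26 without Sensitized libraries 3 and 4), but 0.53 with loess offsets, under which the value of S+P C5 against N+P C5 turned from 3.51 ± 0.61 to -2.58. The promoter of Rps29 itself had a ratio of only 1.11 between its highest and lowest group means.

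The peak 194 kb from Rplp1 had 262, 370.4, 321 and 241 in S+P C5, then 136, 213, 109 and 55.9 in S+P C7, and between 15.8 and 78.3 in all 17 other libraries. Its log2 fold change was 2.59 ± 0.37 against Sensitized (2.70 without Sensitized libraries 3 and 4) and 3.07 ± 0.39 against S+P C4. The value of S+P C7 against S+P C5 was -1.23 ± 0.36, with groups that did not overlap. Loess offsets turned the sign of S+P C5 against N+P C5 from 2.61 ± 0.41 to -0.33.

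The peak 193 kb from Rplp1 was already higher in Sensitized. It had 15.2, 5.90 and 2.52 in Naive while Sensitized libraries had 186, 108, 19.5 and 42.3, a difference on the log2 scale of 3.61 ± 0.62 (DESeq2 adjusted p = 2.3e-07) with groups that did not overlap, which was 4.39 without Sensitized libraries 3 and 4, and 0.67 and not called with loess offsets. The S+P libraries had 64.7, 87.0, 134 and 50.1 (C4), 202, 256, 273 and 177 (C5), and 202, 281, 242 and 107 (C7), and the 6 N+P libraries between 3.77 and 21.1. The peak 84.3 kb away had 262, 268, 201 and 216 in S+P C5 and between 64.7 and 109.7 in all libraries outside S+P C5 and C7, a log2 fold change of 1.4 ± 0.23 against Sensitized (1.35 without Sensitized libraries 3 and 4); in S+P C5 against N+P C5 its value turned from 1.39 ± 0.26 to -0.38 with loess offsets. The Rplp1 promoter had 0.16 ± 0.13 in S+P C5 against Sensitized (0.083 without those 2 libraries) and did not pass.

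**Figure D4:**
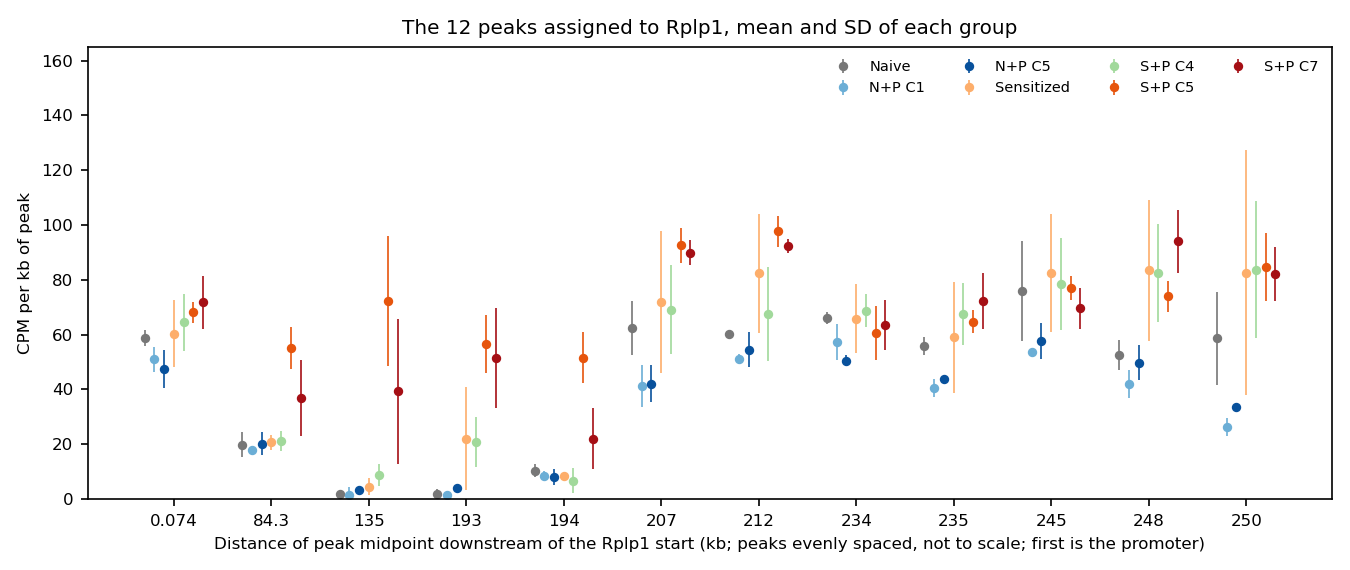
Level (vertical axis, CPM per kb of peak) of the 12 peaks assigned to Rplp1 by group (colours), mean and SD over the 3 or 4 libraries of each group, against distance from the gene's start (labels in kb, evenly spaced). The 4 peaks at 84.3, 135, 193 and 194 kb are low in Naive and N+P and highest in S+P C5, and those at 84.3 and 194 kb are about as low in Sensitized and S+P C4. The promoter and the peaks from 207 kb on held counts in every group, although most of these remote peaks were in only some of the group peak lists.

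Other remote peaks were lower in S+P. The peak 171 kb from Rpl34, in the interval between Rpl34 and Lef1, had 238, 264 and 264 in Naive, 230.1, 241 and 299.6 in N+P C1 and 246, 285 and 254 in N+P C5. Sensitized libraries had 71.0, 74.5, 207 and 200.1, and the S+P libraries 279, 134, 49.5 and 102 (C4), 94.8, 79.6, 43.7 and 38.8 (C5), and 44.2, 27.2, 23.2 and 22.9 (C7). All S+P C5 and C7 libraries were below all Naive and N+P libraries, Sensitized libraries 1 and 2 lay far below 3 and 4, and S+P C4 ranged from 49.5 to 279. Against N+P C5, the log2 fold change of S+P C5 was -2.02 ± 0.44, which is a description, since the peak was held only by the N+P C5 list and had to be high there. In S+P C7 against Sensitized the value was -2.22 ± 0.43 (DESeq2 adjusted p = 2.9e-06), and -1.29 without Sensitized libraries 3 and 4 (DESeq2 adjusted p = 0.027). In S+P C5 against Sensitized it was -1.10 ± 0.41 (DESeq2 adjusted p = 0.036), and -0.17 without Sensitized libraries 3 and 4, which ended the call.

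The peak 121 kb from Rpl14, toward Ctnnb1, had 799, 747 and 662 in Naive, 502, 556 and 636 in N+P C5 and 517, 644 and 603 in N+P C1. Sensitized libraries had 212, 209, 537 and 437, and the S+P libraries 538, 395, 239 and 307 (C4), 350.0, 159, 142 and 159.7 (C5), and 175, 85.1, 89.5 and 75.6 (C7). S+P C7 lay below Sensitized in every library (-1.71 ± 0.33, DESeq2 adjusted p = 3e-06), with -0.98 (DESeq2 adjusted p = 0.027) without Sensitized libraries 3 and 4. The Rpl14 promoter moved the other way. The intronic Dipk1a peak 26.3 kb from Rpl5 had 352, 338, 372 and 287 in S+P C5 and 536, 747, 595 and 598 in Sensitized (-0.87 ± 0.17, DESeq2 adjusted p = 1.4e-05), with -0.92 without Sensitized libraries 3 and 4.

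A remote peak was higher in sensitized mice with and without pregnancy. It lies in an intron of Rps15a, a small-subunit gene, 2.41 kb from the start, and had 118, 148 and 135 in Naive, 127, 128 and 168 in N+P C1, 178, 175 and 149 in N+P C5, and 333, 362, 178 and 196 in Sensitized. The S+P libraries had 289, 366, 509 and 432 (C4), 442, 409, 349.7 and 423 (C5), and 475, 521, 565 and 512 (C7). Every S+P and Sensitized library was above every Naive and N+P library, although Sensitized library 3 exceeded the highest of them by less than 1 normalized count. Its log2 fold change was 0.99 ± 0.22 in Sensitized against Naive (DESeq2 adjusted p = 0.00013; 1.37 without Sensitized libraries 3 and 4) and 1.53 ± 0.23 in S+P C4 against N+P C1 (DESeq2 adjusted p = 6.1e-10). The neighbouring peak in an Arl6ip1 exon, 3.88 kb away, had 244, 185, 229 and 215 in S+P C5, against 323, 317, 331 and 342 in S+P C4 (-0.58 ± 0.12, DESeq2 adjusted p = 0.00017) and 311, 271, 299.9 and 355 in S+P C7, so that S+P C5 was below both other S+P subsets in every library. The Ikzf4 intron peak 10.3 kb from Rps26 was lower in Sensitized than in Naive (-0.93 ± 0.23, DESeq2 adjusted p = 0.00095; -1.36 without Sensitized libraries 3 and 4).

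The other remote peaks at Rplp1 and those near Rpl14 moved upward where they passed a comparison named here. At Rplp1, the peak at 250 kb had 148, 149 and 158 in N+P C5, whereas S+P C5 libraries had 329, 367, 451 and 328 (1.28 ± 0.31, DESeq2 adjusted p = 0.00017), that at 248 kb was higher in Sensitized than in Naive (0.66 ± 0.19, DESeq2 adjusted p = 0.0068; 0.89 without Sensitized libraries 3 and 4), that at 212 kb was higher in S+P C5 than in S+P C4 (0.49 ± 0.15, DESeq2 adjusted p = 0.02) and that at 207 kb was higher in S+P C5 than in N+P C5 (1.08 ± 0.21, DESeq2 adjusted p = 4.2e-06). Most remote Rplp1 peaks were held by only some group lists, so a high value in a group may have been a condition of entry. The p-values given here for the Rplp1 peaks are therefore a description. The peaks 6.00 and 11.3 kb from Rpl14 were higher in S+P C5 than in N+P C5 by 0.94 ± 0.21 and 0.53 ± 0.14, the direction of the Rpl14 promoter.

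**Figure D5:**
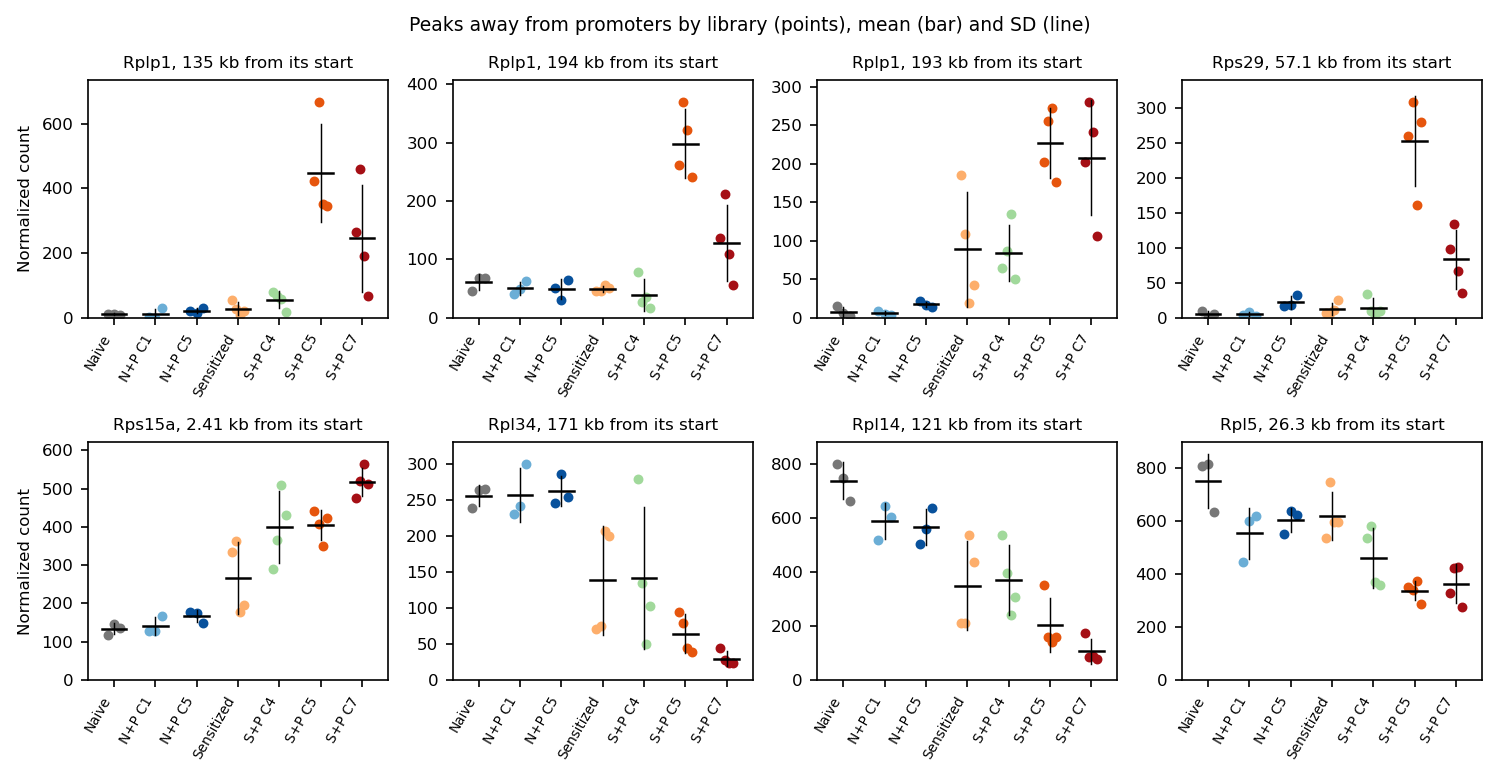
Normalized counts (vertical axis) of 8 remote peaks in each of the 25 libraries (points) by group, with the group mean (bar) and SD (line). In the upper row the 2 peaks at 135 and 194 kb from Rplp1 and the Rps29 peak reach their highest counts in S+P C5 (up to 669, 370.4 and 309), and in the lower row the peaks near Rpl34, Rpl14 and Rpl5 are lowest in S+P C5 or C7.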

How the data were processed

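ATAC-seq libraries (25, in 7 groups) of CD8+ T cells were analysed from the table of raw counts per peak that the authors deposited. Per the labels and the methods of the study, the authors trimmed reads with cutadapt 3.4, aligned them to GRCm39 with Bowtie2 2.2.9, discarded reads that mapped to several places and, with Picard 2.21.8, PCR duplicates, called peaks in each library with Genrich 0.6.1 and kept peaks recurring within a group with ChIP-R. The deposited peak lists of each group hold a ChIP-R score, a signal value and p-values with q-values; here they were used only for which group list held a peak. Removing non-unique reads can lower counts where ribosomal protein pseudogenes share sequence with the gene.

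Each peak was given the nearest protein-coding start (GENCODE vM39). Groups were compared with DESeq2 1.42.0 (Wald test, R 4.3.3; all 25 libraries, median-of-ratios size factors, no replicate term), called at an adjusted p under 0.1, with a further limit of 0.9 on the absolute log2 fold change. An NA adjusted p under independent filtering was kept as not tested. The edgeR 4.0.16 quasi-likelihood test, other size factors, loess offsets (limma 3.58.1), other filters, a replicate block and leaving out each library were alternatives. The scripts were tested on simulated data. Same-numbered libraries of subsets deviated together, with correlations of 0.103 to 0.771, and were taken as paired on that ground; between S+P C5 and S+P C4, number 2 was not the best match in either direction and number 3 in only 1. The study's methods describe cell suspensions made mouse by mouse; the labels do not tie libraries to mice, and p-values measure the spread between these libraries. No batch label was given, and libraries shared a sequencing run. The study's legend gives 2 or more independent experiments as the source of its data. The labels do not say which experiment a library came from. No 2 libraries of a group agreed within sampling noise (chi-square divided by degrees of freedom was at least 2.81).

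The peaks named were, per comparison, up to 6 higher and 6 lower by adjusted p, the promoters of a list of proteins with known roles, and the 3 highest and 3 lowest levels. The members, this rule and the gene lists were chosen with earlier results of these data known. A few genes and peaks that the rule names are not reported here, though counts over all members include them. Of the proteins on that list, Rpl3 and Rpl38 had no member peak. Sequences were read from the GRCm39 genome.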

Additional observations from a re-analysis of the deposited data

Results flagged for a closer look

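In 7 of 144 sets of 4 libraries (4.86%), 1 library stood apart from the other 3. The sets share libraries, and the cause was not tested. Rpl11 had 349.7 normalized counts in S+P C5 library 1, against 295 to 301 in the others. The peak 207 kb from Rplp1 had 429 in S+P C4 library 1, against 697 to 743. The peak 121 kb from Rpl14 had 350.0 in S+P C5 library 1, against 142 to 159.7, and 175 in S+P C7 library 1, against 75.6 to 89.5. Rpl36al had 1156 in Sensitized library 4, against 1069 to 1074. Rpl30 had 1215 in Sensitized library 1, against 1447 to 1461, and 1288 in S+P C4 library 2, against 1388 to 1394.

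The effect of pregnancy on C5 cells differed between sensitized and naive mice by the interaction test (DESeq2, log2 difference with its SE) at the following named peaks. Among promoters it was higher by 0.84 ± 0.27 at Rpl11 (adjusted p = 0.020), 0.80 ± 0.21 at Rpsa (adjusted p = 0.0046) and 0.76 ± 0.18 at Rplp2 (adjusted p = 0.0018). It was -0.45 ± 0.17 at Rps20 (adjusted p = 0.041), -0.43 ± 0.12 at Rpl37 (adjusted p = 0.0069), -0.40 ± 0.15 at Rpl36a (adjusted p = 0.042), -0.39 ± 0.14 at Rps6 (adjusted p = 0.038) and -0.30 ± 0.11 at Rpl30 (adjusted p = 0.038). Among remote peaks it was 2.97 ± 1.00 at 135 kb, 2.91 ± 0.57 at 194 kb and 1.36 ± 0.37 at 84.3 kb from Rplp1, and 2.25 ± 0.93 at Rps29, given as a description, since these peaks entered the table through the S+P C5 list alone and high values there were a condition of their presence. Without Sensitized libraries 3 and 4, the calls at Rpl11, Rps20, Rpl36a, Rps6, Rpl30 and the peak 135 kb from Rplp1 were lost, where the values were 0.73, -0.26, -0.25, -0.29, -0.23 and 2.43, respectively. In N+P C5 against Naive, which the interaction subtracts, the log2 fold changes were -0.63 at Rpl11, -0.34 at Rplp2 and -0.29 at Rpsa. They were 0.36 at Rps6, 0.28 at Rps20, 0.23 at Rpl37 and at Rpl36a, and 0.15 at Rpl30. Of these values only that of Rps6 was called, and part of each promoter interaction lay there.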

How the results depend on the processing

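Leaving out each library in turn gave 5 to 16 member peaks called at an adjusted p under 0.1 for Sensitized against Naive, 0 to 21 for N+P C1 and 0 to 21 for N+P C5 against Naive, 0 to 0 between the N+P subsets, 0 to 33 for S+P C4, 14 to 48 for S+P C5 and 31 to 58 for S+P C7 against Sensitized, 42 to 57 for S+P C5 against N+P C5, 27 to 50 for S+P C4 against N+P C1, 5 to 13 for S+P C5 against S+P C4, 1 to 6 for S+P C7 against S+P C5 and 10 to 51 for the interaction. Without Sensitized libraries 3 and 4 (chosen after seeing the data) the counts were 19 for Sensitized against Naive, 1, 7 and 20 for S+P C4, C5 and C7 against Sensitized and 7 for the interaction. Sensitized against Naive gave 16 with loess offsets. N+P C1 against Naive gave 2 with TMM factors, 2 with promoter-peak size factors, 1 with loess offsets, 0 with edgeR and 11 with only the libraries compared. N+P C5 against Naive gave 3 with TMM factors, 5 with library totals, 0 with loess offsets, 2 without independent filtering, 0 with edgeR and 14 with only the libraries compared. S+P C4 against Sensitized gave 3 with promoter-peak size factors, 0 with edgeR and 0 with only the libraries compared. Between S+P C7 and S+P C5 there were 8 with only the libraries compared and 14 with the replicate block. With the block, there were 12 between S+P C5 and S+P C4 and 0 between the N+P subsets. As a share of promoter-peak counts, the member promoters held 0.674% in Naive, 0.651% in N+P C1, 0.646% in N+P C5, 0.679% in Sensitized, 0.705% in S+P C4, 0.703% in S+P C5, then 0.711% in S+P C7.

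Over all alternatives, 1385 of 1585 values of named peaks kept direction and call, 189 lost their call and 11 changed sign, all 11 with loess offsets. The peak 193 kb from Rplp1 went to -0.18 (S+P C5) or -0.37 (S+P C7) against Sensitized, to -0.33 for S+P C5 against N+P C5, and to -0.079 for S+P C5 against S+P C4. That at 194 kb went to -0.24 in S+P C7 against Sensitized and -0.33 in S+P C5 against N+P C5, that at 84.3 kb to -0.38 in the latter and that at 135 kb to -0.92 in S+P C4 against N+P C1. The Rps29 peak went to -1.15 in S+P C7 against Sensitized, -2.58 in S+P C5 against N+P C5 and -0.52 in the interaction. Loess offsets follow the trend with mean count, and these peaks have low counts; the cause was not tested. Depth limits the remote peaks with few counts, such as the peak 135 kb from Rplp1, which had a raw count of 0 in N+P C1 library 2.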
